A study of Mus musculus with 17 samples.

Results

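The subunits of the oxidative phosphorylation system were followed through 17 bulk RNA-seq libraries of mouse skeletal cells, as genes of the nucleus and of the mitochondrial genome. Members were taken by symbol: protein-coding genes of the Nduf (not Ndufaf), Sdh, Uqcr, Cox4 to Cox8 and Atp5 series, and every protein-coding gene of the mitochondrial genome. This gave 98 genes of 55335 in the files, 85 nuclear genes on 19 chromosomes and 13 mitochondrial genes. The nuclear members comprised 37 genes of complex I, 4 of complex II, 8 of complex III, 18 of complex IV and 18 of complex V, and the mitochondrial members 7 of complex I, 1 of complex III, 3 of complex IV and 2 of complex V. Complexes were assigned by symbol series alone, so Ndufa4 and Ndufa4l2 count with complex I, Cox7a2l with complex IV and Atp5s with complex V.

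Skeletal stromal cells (SSCs) and osteoprogenitor cells (OPCs) were sorted from the bone fraction of WT mice and of mice with 1 (+/1013) or 2 (1013/1013) copies of a knock-in Cxcr4 allele named 1013, a germline truncation of the chemokine receptor that is found in WHIM syndrome. The allele was present in all cells of the mutant mice, not in skeletal cells alone. Mice were littermate females of 8 to 12 weeks of age, and each library was made from 3000 cells of a pool of 3 mice. Each cell type and genotype had 3 libraries, except 1013/1013 SSCs with 2. Both sorts excluded CD45, TER119 and CD31 positive cells, SSCs being Sca-1+ CD51+ PDGFRα+ and OPCs Sca-1- CD51+ PDGFRα+/-. Ly6a, the gene of Sca-1, measured 530 to 1789 CPM (counts scaled to the size of the library) in SSC libraries and 0.453 to 11.8 in OPC libraries, and the osteoblast transcription factor gene Sp7 measured 156 to 316 CPM in OPCs and 0.0452 to 46.8 in SSCs.

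Oxidative phosphorylation takes place in the inner mitochondrial membrane. Complex I (NADH dehydrogenase) and complex II (succinate dehydrogenase) pass electrons to ubiquinone, complex III (cytochrome bc1) passes them on to cytochrome c, and complex IV (cytochrome c oxidase) reduces oxygen. The proton gradient formed on the way drives complex V, the ATP synthase. Complex II is encoded wholly by nuclear genes, whereas the other complexes join nuclear subunits to a core encoded by mitochondrial DNA, which is transcribed from both of its strands by an RNA polymerase of its own. In the bone lineage, stem and progenitor cells are often described as glycolytic, with mitochondrial respiration rising as osteoblasts mature.

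OPC libraries held 64099849 to 92683497 counts assigned to genes and SSC libraries 44217695 to 50509592. In SSCs, the reads assigned to no gene made up 3.68 to 4.15% in the WT libraries and 1.5 to 2.69% in the mutant libraries, and 21449 to 22599 genes were detected in WT against 15748 to 19227 in mutants, fewest in replicate 1 of 1013/1013. The labels name no batch, so a preparation batch and the genotype, or the cell type, cannot be told apart. The 2 collagen I genes took 16.1 to 38.7% of the counts in OPCs and 0.563 to 2.78% in SSCs. In bulk samples, fewer cells of a type and less RNA per cell cannot be told apart.

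Mitochondrial messages took a small and variable part of each library. Their share of all gene counts was 0.212, 0.223 and 0.234% in WT OPCs, 0.376, 0.248 and 0.291% in +/1013 OPCs, and 0.356, 0.228 and 0.269% in 1013/1013 OPCs. In SSCs it was 0.305, 0.195 and 0.105% in WT, 0.793, 0.564 and 0.216% in +/1013, and 1.92 and 0.512% in 1013/1013. Hence 4 of the 5 mutant SSC libraries lay above every WT SSC library, +/1013 replicate 3 lay inside the WT range, and replicate 1 of 1013/1013 lay far above all others. Intervals that cover counting error only (95%, Wilson) were at most 0.00405 percentage points wide on either side of a share, far less than the spread between libraries.

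Nuclear members were steadier. They took 0.417, 0.440 and 0.462% of counts in WT OPCs, 0.523, 0.424 and 0.373% in +/1013 OPCs, and 0.454, 0.421 and 0.462% in 1013/1013 OPCs. WT SSCs lay close to these values at 0.471, 0.479 and 0.452%, while +/1013 SSCs held 0.721, 0.646 and 0.641% and 1013/1013 SSCs 0.801 and 0.619%. All 5 mutant SSC libraries lay above all 3 WT SSC libraries, without overlap. With the collagen I genes taken out of the denominator, the nuclear share in OPCs became 0.541 to 0.750%, higher than the 0.462 to 0.493% of WT SSCs and within reach of the 0.625 to 0.808% of mutant SSCs.

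The balance between the genomes, as mitochondrial counts per nuclear member count, was tightest in WT OPCs, at 0.509, 0.507 and 0.507. It was 0.720, 0.586 and 0.779 in +/1013 OPCs and 0.784, 0.542 and 0.582 in 1013/1013 OPCs, so that each mutant OPC library lay above the WT ones. WT SSCs ran from 0.233 to 0.647, +/1013 SSCs from 0.337 to 1.10, and 1013/1013 SSCs gave 2.40 and 0.828. Both 1013/1013 SSC libraries lay above the WT ones, whereas +/1013 overlapped both other genotypes. No test was run on these sums over members.

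**Figure D1:**
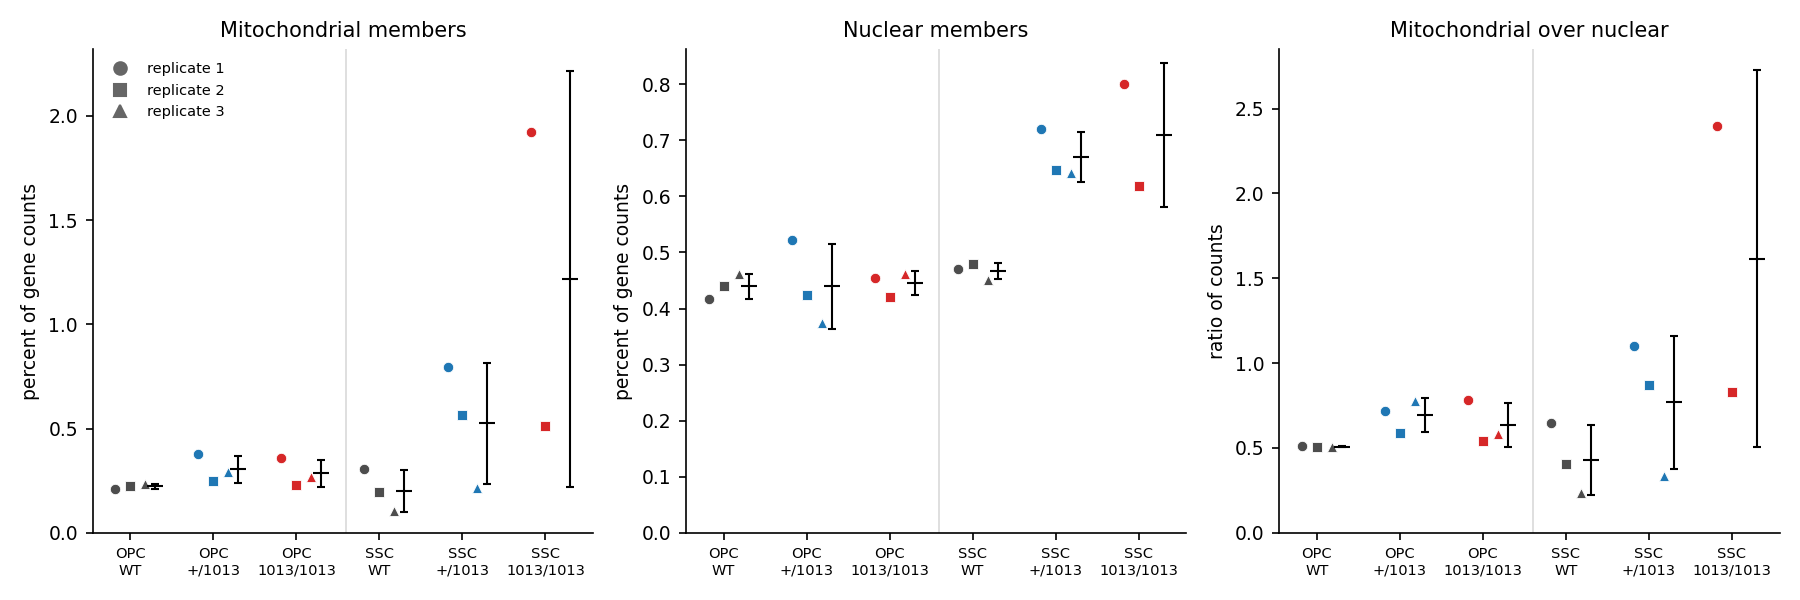
Share of gene counts on mitochondrial members (percent), share on nuclear members (percent) and their ratio in each library, by cell type and genotype. Points are libraries with the marker shape giving the replicate number, bars are means with SD, and the mutant SSC libraries lie above the WT ones for the nuclear share while the mitochondrial share of SSCs runs from 0.105 to 1.92%.

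Levels were compared between genes on a TPM-like scale, as counts per kb of exon brought to the same sum in each library. On that scale mt-Cytb, the haem-bearing core of complex III, ranked first of all members with a mean of 5241 over the 17 libraries, before mt-Nd1, a membrane subunit of complex I, at 2631 and mt-Co1, the catalytic core of complex IV, at 1932. The first nuclear member was Atp5b, the catalytic beta subunit of ATP synthase, at 1002, followed among nuclear genes by Cox6a1 at 562 and Cox4i1 at 458, both of complex IV. In the other complexes the highest nuclear members were Sdhd (412) and Sdha (264) of complex II, Ndufa1 (264) and Ndufa2 (240) of complex I, and Uqcrb (177) of complex III. mt-Cytb, mt-Co1 and mt-Nd1 together carried most mitochondrial counts, with mt-Cytb alone at 40.9 to 45.4% in OPCs and 36.0 to 50.1% in SSCs.

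Subunits that the complexes need in equal number were read at very unequal levels, and part of them hardly at all. mt-Co2 measured 0.015 to 0.532 CPM over the libraries, mt-Co3 0.0475 to 1.41, mt-Atp6 0.030 to 1.23 and mt-Atp8 0.0158 to 0.422, while mt-Nd4l had no count anywhere. For 5 mitochondrial members (mt-Co2, mt-Co3, mt-Atp6, mt-Nd3, mt-Nd4l) 98.0 to 100% of all 50-base stretches of the transcript also occurred in another annotated gene, in each case a pseudogene on chromosome 1. mt-Nd4 shared 62.2% and mt-Co1 51.1%, and 6 members shared under 10%, among them mt-Cytb, mt-Nd1, mt-Nd6 and mt-Atp8 with none. Of the nuclear members, 35 shared no 50-base stretch and 20 shared over 10%. Part of the 20 share with a gene that overlaps them at the same place, such as Ndufb6 with Smim27 and Atp5o with Gm15976. Reads there can align uniquely and still be ambiguous between genes. Reads that aligned to more than one place were 7.75 to 10.4% of reads in OPCs and 5.10 to 8.56% in SSCs and entered no gene count. Ambiguous reads were 1.87 to 2.62% in OPCs and 3.28 to 3.93% in SSCs and entered none either. How far either kind lowers the counts of the members concerned was not tested, and their fold changes are read with that limit.

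The sequence of mt-Co2, a core subunit of complex IV with the copper site that accepts electrons from cytochrome c, is shown because all of it was shared. Its coding sequence (mm10 chrM:7013-7696, plus strand) and that of Gm28661 (chr1:24614885-24615565, minus strand) were identical at 681 of 681 aligned bases, and mt-Co2 held 7 to 20 counts and Gm28661 10 to 20 in the OPC libraries. The opening 90 coding bases of both, from GENCODE M21 transcripts, are given in lower case since no base differs.
mt-Co2: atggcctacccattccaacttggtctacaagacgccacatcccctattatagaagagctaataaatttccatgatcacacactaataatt
Gm28661: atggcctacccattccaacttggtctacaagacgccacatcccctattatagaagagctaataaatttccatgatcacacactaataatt

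Other members were also near the floor. Uqcrc1, a core subunit of complex III, held 6 counts in all libraries together without any shared stretch, and Ndufs3, an iron-sulfur subunit of complex I, 34 counts. The annotation release and the counting mode behind the counts are not known here, and whether they lower these values was not tested. Cox7b2 and the second of 2 gene entries of Atp5o had none. After the filter on low counts, 79 nuclear and 12 mitochondrial members were tested within OPCs and 80 and 12 within SSCs and over all libraries. To be called, a member needed an adjusted p below 0.05 (Benjamini-Hochberg over every gene in the fit, quasi-likelihood test of edgeR) together with a change of 1.5-fold or more. The WT libraries serve as controls of both mutant genotypes, so the 2 comparisons within a cell type are not independent.

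In SSCs, the question was how the subunits stand in mice with the gain-of-function receptor. No member was called in either comparison, where edgeR called 0.0736% of 17659 genes in +/1013 and 0% in 1013/1013. Short of a call, nearly all members stood higher in the mutants. In +/1013 SSCs, 78 of 80 tested nuclear members had a positive fold change (44.8% of all genes), with a median log2 fold change of 0.77 against -0.11 over all genes, and in 1013/1013 SSCs 76 of 80 (42.1% of all genes) with a median of 0.92 against -0.23. An unadjusted p under 0.05 with a higher level was reached by 60 nuclear members in +/1013 (7.65% of all genes) and 63 in 1013/1013 (8.37%), and none reached it with a lower level (9.68 and 9.89% of all genes). Mutant and WT libraries did not overlap, mutants higher, for 71 nuclear members in +/1013 (15% of all genes) and 69 in 1013/1013 (16.4%). This held for 2 of 12 tested mitochondrial members in +/1013 and for 12 in 1013/1013. Mutant libraries lay below WT without overlap for 0 nuclear members in +/1013 and 2 in 1013/1013. The share of all genes in that direction is not given here, so these counts are not read further. The Wald test of DESeq2 on the same counts called 33 nuclear and 1 mitochondrial member in +/1013, all higher (2.88% of genes called higher), and 50 nuclear and 8 mitochondrial members in 1013/1013, all higher (3.85%).

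**Figure D2:**
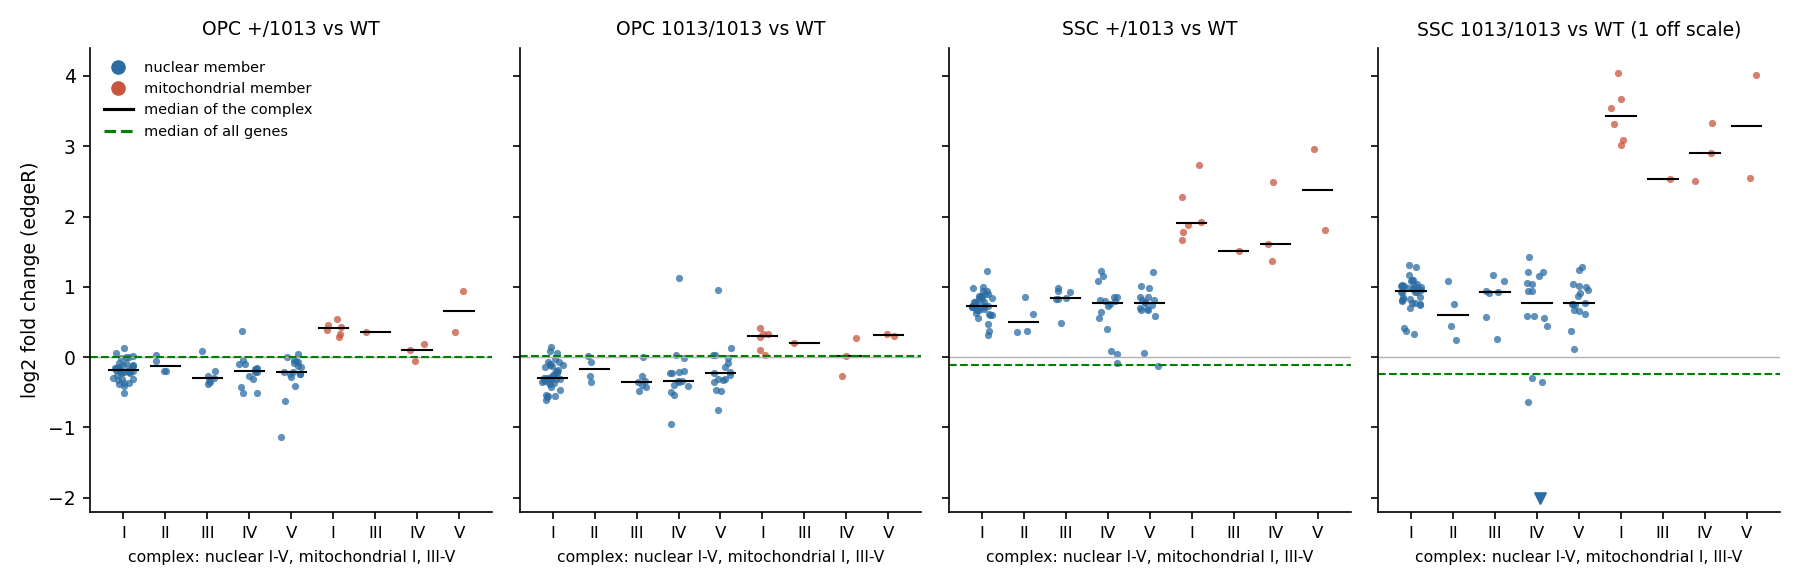
Log2 fold change of each tested member against WT, by complex, in the 4 genotype comparisons (nuclear members blue, mitochondrial members red). Black bars are the median of a complex and the green dashed line the median of all genes tested; 1 member, Cox6a2 in 1013/1013 SSCs, lies off the scale and is drawn as a triangle.

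All 36 tested nuclear members of complex I stood higher in both mutant SSC comparisons, with a median of 0.73 in +/1013 and 0.94 in 1013/1013 and a range of 0.33 to 1.30 in the latter. Ndufa1, a small accessory subunit of the membrane arm, measured 31.8, 27.2 and 23.9 CPM in WT, 45.1, 51.9 and 38.6 in +/1013, and 72.7 and 49.8 in 1013/1013. Neither mutant group overlapped WT, and the log2 fold change was 0.69 ± 0.22 (SE) in +/1013 and 1.17 ± 0.24 in 1013/1013, with edgeR adjusted p of 0.199 and 0.107. Ndufa2, an accessory subunit of the matrix arm, gave 0.66 ± 0.22 and 0.86 ± 0.24 (adjusted p 0.202 and 0.16).

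Complex II had the smallest medians of the 5 sets of nuclear members. Its 4 nuclear genes were higher in both comparisons, with medians of 0.50 and 0.60. Sdha, the flavoprotein that oxidises succinate, measured 220, 200 and 231 CPM in WT, 294, 287 and 274 in +/1013, and 319 and 264 in 1013/1013. Sdhd, a membrane anchor, measured 71.3, 73.3 and 81.0 CPM in WT, 129, 113 and 110 in +/1013, and 185 and 132 in 1013/1013. In neither gene did the mutants overlap WT. The log2 fold change of Sdha in 1013/1013 was 0.44 ± 0.18 (edgeR adjusted p 0.265) and that of Sdhd 1.09 ± 0.21 (adjusted p 0.098), so that the members of this small complex differed among themselves.

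Complex III had medians of 0.85 and 0.92 over 7 tested nuclear members. Uqcrb, the ubiquinone-binding accessory protein, measured 55.3, 50.3 and 33.5 CPM in WT, 77.2, 128 and 65.3 in +/1013, and 92.7 and 81.1 in 1013/1013, with 128 in +/1013 replicate 2 the highest value. Uqcrfs1, the Rieske iron-sulfur protein, measured 36.2, 35.9 and 40.2 CPM in WT, 58.5, 52.0 and 49.8 in +/1013, and 59.4 and 50.6 in 1013/1013. Their log2 fold changes in 1013/1013 were 0.92 ± 0.33 and 0.57 ± 0.18 (edgeR adjusted p 0.212 and 0.189).

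Complex IV had medians of 0.78 and 0.76. Cox4i1 (mm10 chr8:120668222-120674207, plus strand), the regulatory subunit that is assembled early with the catalytic core, measured 119, 115 and 88.7 CPM in WT SSCs, 273, 251 and 242 in +/1013, and 303 and 268 in 1013/1013. Every mutant library was more than the sum of any 2 WT libraries, and the groups lay far apart. Its log2 fold change was 1.23 ± 0.17 in +/1013 and 1.43 ± 0.19 in 1013/1013, with edgeR adjusted p of 0.055 and 0.0671. Of its exons, 9.94% overlap Emc8 on the opposite strand, and the library kit keeps no strand, so reads there cannot be told apart. Cox7a2l (chr17:83501918-83517330, minus strand), which joins complex III and complex IV into supercomplexes, measured 20.0, 18.6 and 26.5 CPM in WT, 42.8, 39.6 and 33.8 in +/1013, and 54.2 and 45.0 in 1013/1013, again without overlap (0.81 ± 0.22 and 1.20 ± 0.24, adjusted p 0.162 and 0.106). Cox6a1, a small accessory subunit, measured 63.1 to 84.8 CPM in WT and 138 to 155 in the mutants. In 1013/1013, 12 of 16 tested nuclear members of complex IV were higher and 4 lower.

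Complex V had medians of 0.76 and 0.77. Atp5b measured 581, 570 and 679 CPM in WT SSCs, 1084, 1128 and 943 in +/1013, and 1028 and 1039 in 1013/1013. Atp5c1, the gamma subunit that forms the rotating stalk, measured 116, 105 and 109 CPM in WT, 251, 213 and 206 in +/1013, and 212 and 222 in 1013/1013, so that neither gene overlapped between WT and mutants and neither separated the mutant genotypes. Atp5c1 had log2 fold changes of 1.01 ± 0.15 and 1.00 ± 0.17, with edgeR adjusted p of 0.0661 and 0.0841. Atp5b had 0.76 ± 0.18 and 0.77 ± 0.20 (adjusted p 0.138 and 0.14).

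Mitochondrial members in SSCs had larger fold changes and a far larger spread. All 12 tested were higher in both comparisons, with medians of 1.84 in +/1013 and 3.20 in 1013/1013. mt-Nd1 (chrM:2751-3707, plus strand) measured 357, 168 and 96.1 CPM in WT SSCs, 1349, 710 and 249 in +/1013, and 3238 and 777 in 1013/1013. The +/1013 library with 249 lay inside the WT range, and both 1013/1013 libraries lay above it. Its log2 fold change was 1.88 ± 0.79 in +/1013 and 3.32 ± 0.88 in 1013/1013, with edgeR adjusted p of 0.28 and 0.147, so that the fold change was larger and the adjusted p higher than for Cox4i1.

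The other well-read mitochondrial genes shared this order of libraries in large part. mt-Cytb measured 1072, 713 and 275 CPM in WT, 2992, 2132 and 784 in +/1013, and 5985 and 1737 in 1013/1013 (2.53 ± 0.77 in 1013/1013, edgeR adjusted p 0.176). mt-Nd2, a proton-pumping subunit of complex I, measured 102, 44.8 and 25.0 CPM in WT, 467, 293 and 75.7 in +/1013, and 1146 and 278 in 1013/1013. In both genes replicate 3 was lowest of the WT and of the +/1013 libraries, and replicate 1 was highest in each genotype. mt-Co1 departed from it, with 470, 279 and 255 CPM in WT, 787, 1393 and 437 in +/1013, and 2451 and 1297 in 1013/1013. mt-Nd6, a complex I subunit and the sole protein gene of the light strand, measured 9.32, 4.60 and 3.59 CPM in WT, 37.3, 22.1 and 7.60 in +/1013, and 109 and 23.9 in 1013/1013. The library kit keeps no strand, so reads at mt-Nd6 cannot be assigned to either strand of the mitochondrial genome.

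**Figure D3:**
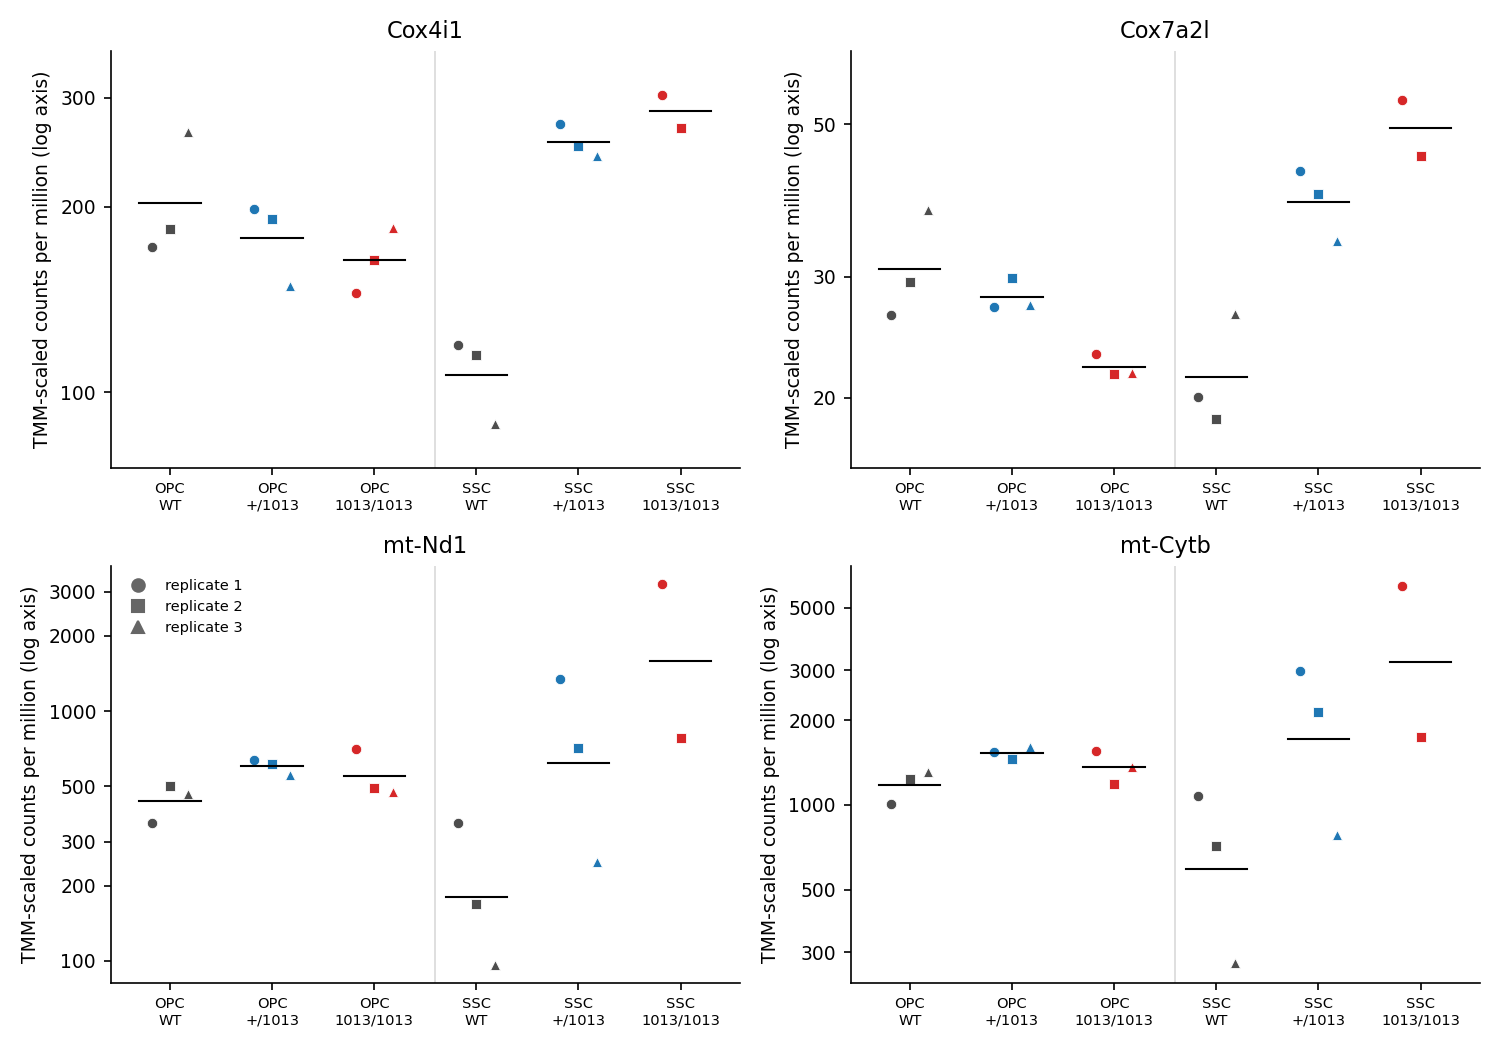
Levels (TMM-normalised CPM, log axis) of Cox4i1, Cox7a2l, mt-Nd1 and mt-Cytb in every library, by cell type and genotype, with lines at the geometric mean. In SSCs, the nuclear genes form tight groups with WT below the mutants, whereas mt-Nd1 runs from 96.1 to 357 CPM in WT and from 249 to 3238 in the mutants.

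The size of the mitochondrial difference rested on single libraries. Without replicate 1 of 1013/1013 SSCs the median of the mitochondrial members was 1.98 in place of 3.20, while the nuclear median was 0.72. Without replicate 2, which leaves replicate 1 alone and assumes that it varies as the other groups do, edgeR called 35 nuclear and 8 mitochondrial members, along with 2931 of 19758 genes. In +/1013, 7 mitochondrial members had an unadjusted p under 0.05, and 0 without WT replicate 2 or 3 and 1 without +/1013 replicate 1 or 2. The nuclear count there was 53 to 56 whichever library was left out, against 60 in the full fit. In the full fit 7.65% of all genes had such a p and a higher level, and shares in the smaller fits are not given here.

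Markers of the sort and of other cells also differed between SSC libraries. The summed level of 7 osteoblast lineage genes, most of it from the collagen I genes, was 23308 to 29974 CPM in WT SSCs and 6716 to 12490 in the mutants. Of the 7, Col1a1, Col1a2, Runx2 and Sp7 did not overlap between WT and mutant SSCs. Ibsp (594 to 1352 CPM in WT, 368 to 1636 in the mutants), Alpl and Bglap did. Ly6a measured 530 to 780 CPM in WT and 891 to 1789 in the mutants. Of the other sort genes, Itgav, the gene of CD51, went the other way, with 68.0 to 84.8 CPM in WT and 21.0 to 38.4 in the mutants. Pdgfra overlapped, with 482 to 569 CPM in WT and 363 to 608 in the mutants. The osteoblast lineage sum, Ly6a and Itgav did not overlap between WT and mutants, as was the case for the nuclear share. The summed level of 10 leukocyte genes was 685, 237 and 4574 CPM in WT SSCs, 132, 45.9 and 53.1 in +/1013, and 1108 and 544 in 1013/1013. That of 4 chondrocyte genes was 765 to 4857 CPM in WT and 9.20 to 136 in the mutants. Skeletal muscle genes, of a tissue rich in mitochondria, summed to 6.81 to 47.1 CPM in WT SSCs, 16.9 to 102 in +/1013, and 189 and 15.4 in 1013/1013, and adipocyte genes to 167 and 16.4 in 1013/1013, replicate 1 being highest in both. All 10 leukocyte, 10 muscle and 5 adipocyte genes were in the files. Of the adipocyte genes, Fabp4 (123 CPM), Adipoq (26.2) and Cfd (17.3) were highest among SSC libraries in 1013/1013 replicate 1, while Plin1 and Cidec were at 0 there. Ucp1, which defines brown adipocytes, was at 0 in every library, and the muscle isoforms Cox6a2, Cox7a1 and Cox8b were at or under 1.32 CPM in each of them. The part of these cells in the differences above was not tested.

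In OPCs, the same 2 comparisons gave no call among the members, where edgeR called 0% of 16207 genes in +/1013 and 0.00617% in 1013/1013, and DESeq2 called no member either (0.358 and 0.259% of genes). The direction differed from that in SSCs. Of 79 tested nuclear members, 70 had a negative fold change in +/1013 (50.6% of all genes) and 68 in 1013/1013 (49.1%), with medians of -0.20 and -0.29, and 11 of 12 mitochondrial members had a positive one in both, with medians of 0.36 and 0.28 (49.4 and 50.9% of all genes were positive). Over the left-out libraries the nuclear medians ran from -0.37 to -0.02 and from -0.45 to -0.08. Few of these members stood out. An unadjusted p under 0.05 was reached in +/1013 by mt-Nd2 alone (2.04% of all genes), and in 1013/1013 by Cox4i2 and Cox7a2l (3.38% of all genes), the 3 being named here because of these values.

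Cox7a2l measured 26.4, 29.5 and 37.5 CPM in WT OPCs, 27.1, 29.9 and 27.3 in +/1013, and 23.2, 21.7 and 21.7 in 1013/1013. All 1013/1013 libraries were below all WT libraries, with a log2 fold change of -0.49 (p 0.0261 unadjusted, edgeR adjusted p 1). Cox4i1 measured 172, 184 and 264 CPM in WT OPCs, 199, 191 and 149 in +/1013, and 145, 164 and 185 in 1013/1013, with overlap between all groups. mt-Nd1 measured 358, 503 and 464 CPM in WT, 637, 612 and 555 in +/1013, and 702, 494 and 474 in 1013/1013, each +/1013 library being above each WT library. For 5 mitochondrial members the +/1013 libraries lay above all WT libraries (2.82% of all genes). Leukocyte genes summed to 7037 CPM in WT OPC replicate 3 and 6497 in 1013/1013 replicate 2, against 42.4 to 188 in the other OPC libraries, and their part was not tested.

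**Figure D4:**
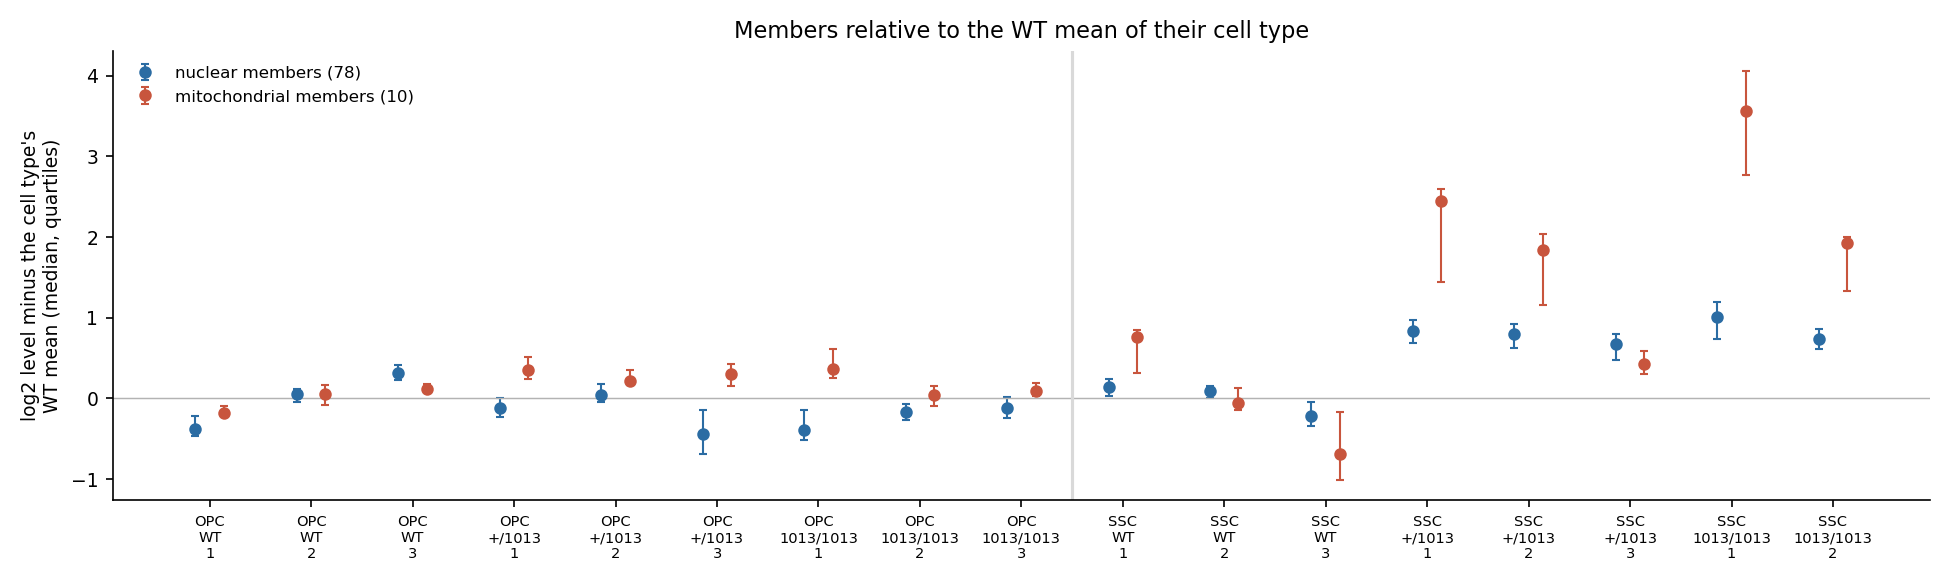
Median, with quartiles, over the nuclear members (78) and over the mitochondrial members (10) of the deviation of each library from the WT mean of its cell type, in log2 (CPM + 1). In SSCs the nuclear median is 0.68 to 1.01 in the mutant libraries and -0.22 to 0.14 in WT, and the mitochondrial median is 0.43 to 3.56 in the mutant libraries and -0.69 to 0.77 in WT.

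Between the cell types, WT differed in direction from both mutant genotypes, with no test of that difference over the members. In WT, 29 nuclear members were called by edgeR, 23 lower in SSCs (5.86% of genes) and 6 higher (5.55%), and the 12 mitochondrial members were all lower in SSCs (44% of all genes), with a median of -1.08, without a call. In +/1013, 28 nuclear members were called higher in SSCs (6.44% of genes) and none lower (6.02%). In 1013/1013, 36 nuclear and 3 mitochondrial members were called higher (6.94%) and none lower (6.12%). The nuclear median thus was -0.24 in WT, 0.71 in +/1013 and 0.96 in 1013/1013, and the mitochondrial one -1.08, 0.32 and 1.58. Without replicate 1 of +/1013 SSCs the mitochondrial median of +/1013 turned to -0.19. The called members of +/1013 were 14 without OPC replicate 3 and 16 without SSC replicate 1 or 2, and those of 1013/1013 were 12 without SSC replicate 1.

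The 23 members lower in WT SSCs comprised 12 of complex I, 2 each of complexes II, III and IV, and 5 of complex V. Atp5o, the stalk subunit that confers oligomycin sensitivity, had the largest fall. It measured 40.5, 57.2 and 77.1 CPM in WT OPCs and 19.5, 20.1 and 17.1 in WT SSCs (-1.62 ± 0.24, edgeR adjusted p 0.000868), but 36.5 to 50.6 in mutant SSCs. Of the Atp5o exons, 47.9% overlap Gm15976 on the opposite strand. The library kit keeps no strand, so reads there cannot be told apart. Atp5b measured 1331, 1470 and 1489 CPM in WT OPCs against the 570 to 679 of WT SSCs (-1.23 ± 0.17, adjusted p 0.00048). Next came Uqcrfs1 at -1.21, Ndufa9, a complex I subunit at the junction of its arms, at -1.19, and Sdhd at -1.17. All 5 had lower levels in each WT SSC library than in any WT OPC library.

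Of 80 tested nuclear members, 6 were called higher in WT SSCs, a share near the 5.55% of all genes. Atp5g2, a gene of the c ring of ATP synthase, measured 0.258, 0.374 and 0.314 CPM in WT OPCs and 5.39, 6.19 and 5.32 in WT SSCs (4.15 ± 0.43, edgeR adjusted p 4.24e-05). Cox7c, a small subunit of complex IV, measured 0.774, 0.926 and 1.65 CPM in WT OPCs and 14.8, 8.87 and 11.2 in WT SSCs (3.38 ± 0.45, adjusted p 0.000391). Uqcrb measured 9.26, 16.9 and 17.7 CPM in WT OPCs and 55.3, 50.3 and 33.5 in WT SSCs (1.66 ± 0.32, adjusted p 0.00409). The others were Atp5g1 (1.77), Cox5b (1.46) and Atp5h (0.98), the last named outside the naming rule as it completes the set.

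All 6 were among the 18 tested nuclear members with over 10% of shared 50-base stretches, with 11.1 to 38.4% and a median of 21.0%. The 23 lower members had a median of 1.25%, with 4 over 10%, and the 51 not called a median of 0.603%, with 8 over 10%. Among the 62 tested members with at most 10% of shared stretches, edgeR called 19 lower and 0 higher in WT SSCs. Over all 80 the shared percentage and the log2 fold change had a Spearman rho of 0.11, and exon length and the fold change one of -0.31, as descriptions over genes that are measured in the same libraries. In 1013/1013 the picture differed, as 25 of the 62 members with little shared sequence were called higher in SSCs. The shared percentage counts stretches of overlapping genes as well as of distant ones. How far multiply aligned or ambiguous reads enter these differences was not tested.

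**Figure D5:**
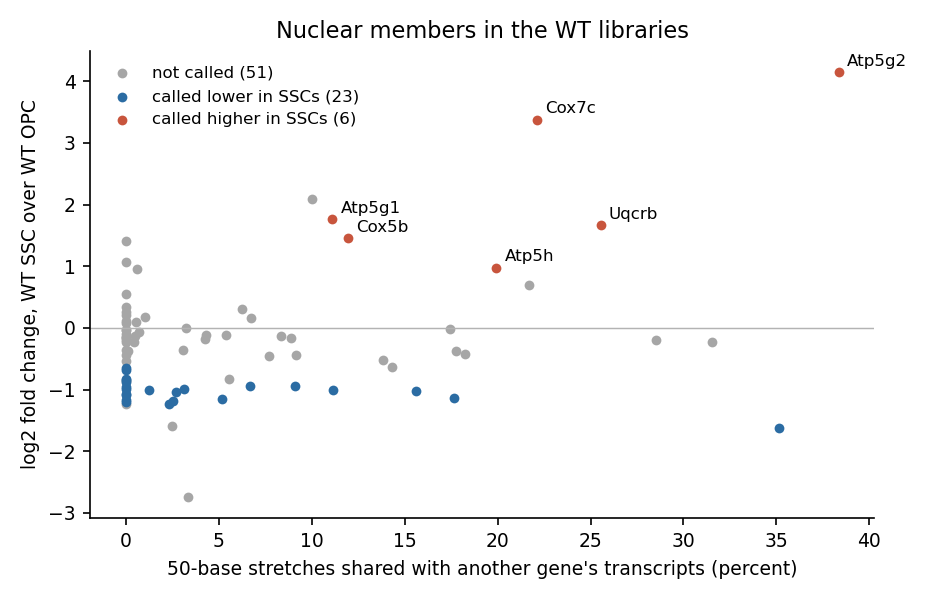
Log2 fold change of the 80 tested nuclear members between WT SSCs and WT OPCs against the percentage of their 50-base stretches that occur in another annotated gene. Members called higher (6), called lower (23) and not called (51) are coloured, and the 6 higher ones lie between 11.1 and 38.4%.

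The sequences behind the highest of these values are printed for comparison, each as a 90-base stretch of coding sequence from GENCODE M21 with the matching stretch of a processed pseudogene. Capitals mark a base that differs between the members of a pair. Atp5g2 (mm10 chr15:102662864-102672352, minus strand) and Gm10175 (chr7:23946646-23947290, minus strand) agree at 438 of 438 coding bases, Cox7c (chr13:86044816-86046904, minus strand) and Gm10012 (chr17:25901856-25902227, plus strand) at 187 of 189, and Uqcrb (chr13:66900617-66905378, minus strand) and Gm16089 (chr5:137615627-137615962, plus strand) at 326 of 333. The stretch of Uqcrb, coding bases 198 to 287, has no difference.
Atp5g2: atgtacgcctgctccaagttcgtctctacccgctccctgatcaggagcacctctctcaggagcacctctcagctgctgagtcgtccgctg
Gm10175: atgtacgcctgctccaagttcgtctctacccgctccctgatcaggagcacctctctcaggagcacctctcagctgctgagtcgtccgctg
Cox7c: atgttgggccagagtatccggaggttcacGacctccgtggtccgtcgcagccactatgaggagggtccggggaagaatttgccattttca
Gm10012: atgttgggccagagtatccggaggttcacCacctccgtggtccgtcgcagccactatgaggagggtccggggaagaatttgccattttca
Uqcrb: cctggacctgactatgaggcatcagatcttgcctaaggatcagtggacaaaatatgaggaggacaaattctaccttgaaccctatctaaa
Gm16089: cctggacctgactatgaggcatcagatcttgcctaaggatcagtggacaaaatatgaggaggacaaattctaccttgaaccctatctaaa

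The pseudogenes were themselves little counted, with 5 to 20 counts for Gm10175 in OPCs and 0 to 3 in SSCs, against 14 to 23 and 336 to 629 for Atp5g2. Gm10012 had 0 to 3 counts in either cell type. The higher level of Atp5g2, Cox7c and Uqcrb in SSCs was seen in every genotype. Atp5g2 measured 0.222 to 0.323 CPM in mutant OPCs and 6.71 to 11.0 in mutant SSCs, with log2 differences between cell types of 5.16 in +/1013 and 5.11 in 1013/1013 (edgeR adjusted p 5.58e-06 and 9.54e-06). Cox7c gave 4.04 and 4.25, and Uqcrb 2.95 and 2.96. These 3 and Atp5g1 (2.54) and Atp5l (3.28) had the largest rises of +/1013, Atp5l with at most 1.49 CPM in any library.

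In 1013/1013, the 3 called mitochondrial members were mt-Nd2, mt-Nd3 and mt-Nd4, all of complex I, as were 6 of the 12 tested. mt-Nd2 measured 122, 84.9 and 75.4 CPM in 1013/1013 OPCs and 1146 and 278 in 1013/1013 SSCs (2.92 ± 0.70, edgeR adjusted p 0.0146). mt-Nd4 measured 168, 131 and 141 CPM against 1028 and 249 (2.12 ± 0.59, adjusted p 0.0318), and mt-Nd3 0.444, 0.411 and 0.237 against 7.41 and 2.09 (3.70 ± 0.98, adjusted p 0.0248). In all 3 both SSC libraries lay above all OPC libraries. With 1 library left out, the log2 fold change ran from 1.57 to 3.66 for mt-Nd2 and from 2.51 to 4.39 for mt-Nd3. Of the nuclear members called in 1013/1013, 17 were of complex I, 4 of complex III, 9 of complex IV and 6 of complex V, and none of complex II, whose median was -0.04.

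The difference between cell types in the effect of 1013/1013 was tested directly, as the log2 fold change in SSCs minus that in OPCs. It was called for 2 members, Cox4i1 and Cox7a2l, both of complex IV (0.119% of 20238 genes called higher, 0.0346% lower). For Cox4i1 the effect was 1.74 ± 0.30 larger in SSCs (edgeR adjusted p 0.0361) and for Cox7a2l 1.68 ± 0.28 (adjusted p 0.0342), every 1013/1013 SSC library of either gene lying above its WT libraries, and, for Cox7a2l, every 1013/1013 OPC library below. Across members, 75 of 80 nuclear and 12 of 12 mitochondrial members had a larger effect in SSCs (39.9% of all genes), with medians of 1.14 and 2.99, and 59 and 11 had an unadjusted p under 0.05 in that direction (5.9% of all genes). DESeq2 called 39 nuclear and 7 mitochondrial members (2.39% of genes higher). The number of edgeR calls depended on single libraries, being 3 without WT OPC replicate 1, 1 without WT SSC replicate 3, 32 without 1013/1013 SSC replicate 2, and 0 without any other library of the 4 groups. No member was called without the filter on low counts (adjusted p 0.103 for Cox4i1 and 0.12 for Cox7a2l) or with the replicate number as a block (0.0912 and 0.0771).

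Paralogues of 1 subunit allow a comparison per kb within the same library. Cox4i1 took 86.8 to 90.7% of the sum of Cox4i1 and Cox4i2 in WT OPCs, 74.1 to 92.0% in +/1013 OPCs, 68.2 to 83.6% in 1013/1013 OPCs, 88.3 to 94.8% in WT SSCs and 91.1 to 98.9% in 1013/1013 SSCs. Cox4i2, the isoform known from lung and low oxygen, measured 11.0, 14.2 and 13.8 CPM in WT OPCs, 8.74, 15.6 and 26.5 in +/1013 OPCs, and 34.3, 16.3 and 34.4 in 1013/1013 OPCs, where 1013/1013 did not overlap WT, with a log2 fold change of 1.12 ± 0.44 (p 0.0324 unadjusted, edgeR adjusted p 1). The summed level of the 4 chondrocyte genes in the same libraries was 24525, 33702 and 10014 CPM in WT, 11045, 25473 and 44436 in +/1013, and 77231, 25231 and 55604 in 1013/1013, so that in both mutant genotypes the library with the lowest sum also had the least Cox4i2, and the part of these cells was not tested. In 1013/1013 OPCs, 1 tested nuclear member, Cox4i2, lay above WT without overlap (3.98% of all genes) and 7 lay below (3.63%).

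Ndufa4, a subunit found with complex IV, and Ndufa4l2, its low-oxygen relative, were nearly even in OPCs, with Ndufa4l2 at 46.8 to 54.7% of the pair per kb in WT. In WT SSCs it took 71.3 to 80.4%. Ndufa4l2 measured 12.1, 29.9 and 25.3 CPM in WT OPCs and 77.1, 60.9 and 40.9 in WT SSCs, without overlap and short of a call (1.41 ± 0.45, edgeR adjusted p 0.0603), and the call was reached in +/1013 (2.39 ± 0.47, adjusted p 0.0044) and 1013/1013 (1.68 ± 0.49, adjusted p 0.038). It varied widely among mutant SSCs, from 42.1 to 115 CPM. Ndufa4 measured 17.3 to 32.2 CPM in WT OPCs and 20.7 to 24.5 in WT SSCs.

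The 3 Atp5g genes encode the same mature c subunit. Atp5g3 took 96.0 to 97.0% of their sum per kb in WT OPCs and 74.7 to 76.2% in WT SSCs, with Atp5g1 at 2.71 to 3.60% and 14.9 to 16.2% and Atp5g2 at 0.277 to 0.366% and 8.68 to 9.25%. This division differed between cell types and hardly between genotypes, Atp5g3 being at 75.0 to 82.5% in mutant SSCs. Among the ubiquitous and restricted isoforms, Cox6a1 took 98.6 to 100% over Cox6a2, Cox8a 98.4 to 100% over Cox8b and Cox8c, and Cox6b1 96.7 to 99.5% over Cox6b2 in every library, Cox7b took 100% over Cox7b2, and Cox7a1 was at most 2.10% of its trio, which Cox7a2 led in each library. Cox6a2 had no count in either 1013/1013 SSC library, which allows up to 0.0678 and 0.0594 CPM.

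Promoters of nuclear members, from RefSeq on GRCm38.p6 (250 bases before to 50 after the start), were found for 68 of 84 symbols. They were searched on both strands for letters of 3 factors known at such genes. GCGCATGCGC (NRF1) was in 5 promoters (7.35%, against 1.07% of 27025 genes), CCGGAAG (ETS factors such as GABPA) in 16 (23.5% against 9.93%) and AAGATGGCG (YY1) in 7 (10.3% against 1.64%), and 25 held any of them. Cox6a1 held the letters of NRF1 and ETS. Cox7a2l, with one of the 2 calls above, held none, and Cox4i1, with the other, was among the symbols without a promoter and was not searched. The 250 bases before the start of each are printed 5′ to 3′ on the gene's strand, with matches in capitals (the ETS letters in reverse complement), for Cox6a1 chr5:115348959-115349208 and for Cox7a2l chr17:83514334-83514583, both minus strand. A match describes the letters alone, and no match says nothing of the factors.
Cox6a1: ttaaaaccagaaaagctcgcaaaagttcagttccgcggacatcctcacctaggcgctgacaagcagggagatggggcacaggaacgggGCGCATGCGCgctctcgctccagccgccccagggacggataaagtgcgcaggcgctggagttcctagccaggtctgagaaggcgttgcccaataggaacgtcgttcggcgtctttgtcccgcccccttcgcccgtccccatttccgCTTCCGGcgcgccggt
Cox7a2l: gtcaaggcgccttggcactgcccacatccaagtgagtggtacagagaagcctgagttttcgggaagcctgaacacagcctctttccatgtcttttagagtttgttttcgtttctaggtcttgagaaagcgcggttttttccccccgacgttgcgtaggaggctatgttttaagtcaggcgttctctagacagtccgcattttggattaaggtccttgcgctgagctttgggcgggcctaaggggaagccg

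Other genes of mitochondrial respiration were counted in the same fits, and none of them was called in a genotype comparison by edgeR. Of 7 tested subunits or partners that the symbols miss, 6 were higher in 1013/1013 SSCs (42.1% of all genes) and 4 had an unadjusted p under 0.05, with a median of 0.76 (8.37% of all genes had such a p and a higher level). Examples are Cyc1, cytochrome c1 of complex III (0.40, p 0.0516 unadjusted), and Higd2a, an assembly partner of complex IV (0.87, p 0.00571 unadjusted). Of 43 assembly factors, 34 were higher in +/1013 (44.8% of all genes) and 34 in 1013/1013 SSCs, with medians of 0.41 and 0.49, and 4 and 6 had an unadjusted p under 0.05 in that direction (7.65 and 8.37% of all genes).

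Of 23 factors of mitochondrial DNA and RNA, 12 were higher and 11 lower in 1013/1013 SSCs, with a median of 0.07, and 11 and 12 in +/1013 SSCs, with a median of -0.07. Over all genes, 42.1% were higher in 1013/1013 SSCs and 44.8% in +/1013 SSCs. Of 11 transcriptional regulators of respiration, 5 were higher and 6 lower in 1013/1013, with a median of -0.75, 4 were higher and 7 lower in +/1013, with a median of -0.20, and Gabpa, which pairs with the ETS letters above, had 0.01. Of 13 tricarboxylic acid cycle enzymes, 11 were higher in +/1013 SSCs, 4 of them with an unadjusted p under 0.05 (7.65% of all genes), with a median of 0.45, and 10 in 1013/1013 SSCs, 3 of them with such a p (8.37% of all genes), with a median of 0.25. An example is Mdh2, malate dehydrogenase, at 0.42 in 1013/1013. Between WT SSCs and WT OPCs, 13 of 13 cycle enzymes and 40 of 43 assembly factors were lower in SSCs (44% of all genes), and 5 and 1 were called lower (5.86% of genes).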

How the data were processed

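Paired-end reads of SMART-Seq v4 and Nextera XT libraries (12 PCR cycles each) were checked with FastQC, reads under 50 bases were removed, and the rest were aligned by the authors with STAR to mm10 and counted per gene with HTSeq. The deposited values are raw counts per gene. Versions, annotation release and counting mode are not given in the sources used here, and reads without molecular identifiers are not independent molecules. Gene identifiers were matched to GENCODE M21 (55154 of 55335), which gave symbols, exon lengths and shared 50-base stretches. Rows that name no gene were left out of library sizes: reads in no feature were 1.15 to 4.15% and reads not uniquely aligned 5.10 to 10.4%.

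Groups followed the labels. Genes passing filterByExpr were fitted after TMM scaling with the quasi-likelihood test of edgeR 4.0.16 in R 4.3.3 (glmQLFit with legacy = TRUE), within each cell type for genotype and over all 17 libraries for cell type and for the difference of effects, with Benjamini-Hochberg adjustment over all genes. This test was chosen over the DESeq2 of the authors, which was run as an alternative (DESeq2 1.42.0), and the steps were tested on simulated data. Levels are CPM on TMM library sizes, and marker sums are plain CPM. Fold changes are log2 with their SE. The named genes were all mitochondrial members, the 2 nuclear members of highest level per kb in each complex, the paralogue families and, in each comparison, the called members (beyond 10, the 5 largest rises and falls). Members and lists were chosen with earlier results of these data known. Replicates of a group were pools of different mice. Alternatives were another scaling, filter, test, dispersion setting and choice of libraries, a replicate block, and each library left out in turn.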

Additional observations from a re-analysis of the deposited data

Results flagged for a closer look

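For 2 members the effect of 1013/1013 differed between the cell types by a test of the difference itself, the quasi-likelihood test of edgeR over all 17 libraries. For Cox4i1 the log2 fold change was 1.74 higher in SSCs than in OPCs, where 1013/1013 libraries held 303 and 268 CPM against 88.7 to 119 in WT SSCs, and 145 to 185 against 172 to 264 in WT OPCs. For Cox7a2l it was 1.68 higher, with 54.2 and 45.0 CPM against 18.6 to 26.5 in SSCs, and 21.7 to 23.2 against 26.4 to 37.5 in OPCs. The causes were not tested, and both calls were lost when most single libraries were left out, without the filter on low counts and with the replicate block.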

How the results depend on the processing

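Counts of called members moved most in SSCs, from 0 in +/1013 to 34 (DESeq2), 1 (at least 10 counts in every library) and 7 (all 17 libraries in one fit), and from 0 in 1013/1013 to 58, 1 and 17. The 39 members called between the cell types in 1013/1013 became 8 with only these 2 groups fitted, and the 2 called for the difference of effects became 46 (DESeq2), 0 (no filter) and 0 (replicate block). Leaving out 1 library gave 0 to 43 calls for 1013/1013 SSCs, 14 to 25 and 12 to 42 between cell types in +/1013 and 1013/1013, 21 to 29 in WT, and 0 to 32 for the difference of effects. The mitochondrial median between cell types in +/1013, 0.32, reversed to -0.19 without SSC replicate 1 and ran to 0.72 otherwise. Without Col1a1 and Col1a2 the mean mitochondrial and nuclear shares were 0.348 and 0.685% in WT OPCs, 0.449 and 0.651% in +/1013 OPCs, and 0.379 and 0.603% in 1013/1013 OPCs. Shares of all genes called are not given beside these counts of calls, so whether the shifts are particular to the members was not tested. The causes were not tested, apart from the smaller number of samples or genes in some fits.

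Whether replicate numbers of the labels pair the samples was not settled. Deviations of libraries with the same number correlated at -0.23 to 0.27 in OPCs and -0.08 to 0.10 in SSCs. With different numbers they correlated at -0.30 to 0.34 in OPCs and -0.10 to 0.12 in SSCs. In OPCs the median was 0.10 for the same number and -0.06 for different numbers. In SSCs these medians were -0.0255 and 0.00537. Deviations of WT OPCs and WT SSCs with the same number correlated at 0.08, 0.16 and 0.27. With different numbers they ran from -0.24 to 0.13. The same-number values were 0.04, -0.02 and -0.004 in +/1013, and -0.006 and 0.008 in 1013/1013. Whether OPCs and SSCs of the same number came from the same mice is not stated. The main tests between cell types took the libraries as independent. With the replicate block, members called were 0 in all 4 genotype comparisons and 29, 24 and 30 between cell types in WT, +/1013 and 1013/1013. Fold changes of named genes kept direction and call in 182 recomputed values and lost the call in 11, and with a library left out in 109 and 28. Members with few counts, such as mt-Co2 or Uqcrc1, have the least precise values.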
